A study of Mus musculus with 20 samples.

Results

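Adh1, Fabp3 and Wfdc2 were followed through mouse preimplantation development as 3 genes of 12393 that the array measured with a probe set of 1 gene symbol. They were selected on measured values, namely their high intensity in blastocysts against earlier stages, so the difference between the 8-cell stage and the blastocyst is described here without a test. Arrays of all earlier stages enter that selection, so tests between earlier stages are not fully independent of it. Every probe set annotated to the 3 symbols was taken, which gave 1 probe set for each gene. Adh1 lies on chromosome 3, Fabp3 on chromosome 4 and Wfdc2 on chromosome 2.

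Total RNA was measured on 20 Affymetrix MOE430A arrays, 4 for each of 5 stages, namely oocytes, 1-cell embryos, 2-cell embryos, 8-cell embryos and blastocysts. The RNA of every stage was amplified by repeated in vitro transcription, a step that copies RNA many times over and that all groups share. The labels name no strain, mating, age, culture or treatment, nor the number of embryos behind an array. They also do not say whether replicates came from separate collections, so p-values reflect the scatter of these arrays alone, which can be purely technical. Values are linear probe-set intensities in arbitrary units, which can be compared between stages for a probe set but not between probe sets.

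Adh1 encodes a class I alcohol dehydrogenase, a cytosolic enzyme that oxidizes ethanol and also retinol, the alcohol from which retinoic acid is made by way of retinal. Fabp3 encodes the heart-type fatty acid binding protein, a small carrier that holds long-chain fatty acids in the cytosol of cells that burn or store them. Wfdc2, also called HE4, encodes a secreted protein with WAP (whey acidic protein) domains, a fold shared with several protease inhibitors, and it is made by epithelia including those of the reproductive tract. The blastocyst is the first stage at which the embryo has an epithelium of its own, the trophectoderm, which surrounds the inner cell mass and pumps fluid into the cavity. RNA of the whole embryo was measured, so fewer cells of a type and less RNA per cell cannot be told apart.

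The promoters of the 3 genes are shown to compare the sequence just upstream of genes that share a highest level in the blastocyst. The 250 bases before each annotated start are given 5′ to 3′ on the plus strand, from RefSeq on GRCm38.p6, at chr3:138277335-138277584 for Adh1, chr4:130308488-130308737 for Fabp3 and chr2:164562465-164562714 for Wfdc2. Capitals mark the matches to the searched motifs.
Adh1: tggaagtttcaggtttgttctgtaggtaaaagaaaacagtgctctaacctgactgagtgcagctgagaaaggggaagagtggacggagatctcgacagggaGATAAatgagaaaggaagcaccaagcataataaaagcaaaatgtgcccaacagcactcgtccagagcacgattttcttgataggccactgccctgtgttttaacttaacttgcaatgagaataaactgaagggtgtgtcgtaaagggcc
Fabp3: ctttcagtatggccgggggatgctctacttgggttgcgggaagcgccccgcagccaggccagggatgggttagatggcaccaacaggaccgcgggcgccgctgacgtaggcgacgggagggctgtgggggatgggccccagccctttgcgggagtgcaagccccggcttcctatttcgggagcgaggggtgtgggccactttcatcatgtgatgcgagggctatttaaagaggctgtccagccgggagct
Wfdc2: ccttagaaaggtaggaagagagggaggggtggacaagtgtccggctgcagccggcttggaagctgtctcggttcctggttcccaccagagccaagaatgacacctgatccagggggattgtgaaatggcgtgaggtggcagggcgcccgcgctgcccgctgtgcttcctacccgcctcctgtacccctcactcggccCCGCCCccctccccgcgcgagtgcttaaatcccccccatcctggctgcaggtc

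Both strands were searched for 6 motifs. They were the core promoter box TATAAA, the Sp1-type box GGGCGG, the core GATAA read by factors such as Gata3, the TEAD factor core GGAATG, the nuclear receptor half-site AGGTCA and the core GCCNNNGGC of Tfap2 factors. The matches did not overlap one another. Adh1 held 1 GATAA, from 149 to 145 bases before the start, a motif found in 22.6% of 32817 promoters of the same length. Wfdc2 held 1 GGGCGG on the reverse strand, from 53 to 48 bases before the start, and 32.7% of all promoters held one. Fabp3 held 0 matches to the 6 motifs. The shares of promoters with the motifs that none of the 3 held were 12.4% for TATAAA, 12.6% for GGAATG, 14.0% for AGGTCA and 13.7% for GCCNNNGGC. The promoters differed in base composition. Adh1 had 5 CpG dinucleotides and 44.8% G and C, against 17 CpG and 64.8% in Fabp3 and 14 CpG and 64.8% in Wfdc2, where the medians over all promoters were 6 CpG and 52.4%. RefSeq lists 2 starts for Wfdc2, of which 1 is shown. These matches describe the letters only, and binding to them was not measured.

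The stages carried the markers that define them. Zp3, which encodes a protein of the egg coat, averaged 5489 ± 401 in oocytes and 32.5 ± 5.79 in blastocysts, and Gdf9, an oocyte growth factor, averaged 7590 ± 709 and 67.0 ± 12.0 (SD, n = 4 each). Zfp352, a gene switched on with the embryonic genome, averaged 1994 ± 365 at the 2-cell stage against 19.6 ± 7.0 at the 1-cell stage. Of 9 oocyte markers, 9 fell from the 2-cell to the 8-cell stage, where 25.2% of all probe sets were called lower. Of 6 markers of 2-cell activation, 5 rose at the transition before it, where 23.2% of all were called higher. Median intensity per array ran from 36.5 to 58.1, and correlations between arrays of a stage ran from 0.931 to 0.971. The ratio of 3′ to 5′ actin signal, a measure of how far amplification reached, was 1.52 to 2.22 in blastocysts and 3.46 to 3.90 at the 8-cell stage, and its part in the blastocyst differences below was not tested.

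Adh1 stayed low through 4 stages and was high only in the blastocyst. In oocytes it read 56.3, 72.1, 47.6 and 58.1 on the 4 arrays, and in 1-cell embryos 73.5, 27.7, 31.4 and 50.8. The arrays of 2-cell embryos read 58.3, 53.9, 6.9 and 47.2, and those of 8-cell embryos 49.2, 55.4, 57.9 and 49.0. These 4 stages overlapped throughout, and the low 2-cell value on replicate 3 was the lowest of all 20 arrays. Blastocysts read 2960, 5949, 4284 and 1501, so that the lowest blastocyst array lay far above the highest earlier one.

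In order of stage means, Adh1 ran from blastocyst to oocyte, 8-cell, 1-cell and 2-cell, and only the first step in that order was free of overlap. The means were 58.5 ± 10.1, 45.9 ± 21.0, 41.6 ± 23.6, 52.9 ± 4.48 and 3673 ± 1896 from oocyte to blastocyst (SD, n = 4 each). The blastocyst mean was 69.5 times the 8-cell mean, a difference of 5.66 ± 0.35 (moderated SE) on the log2(intensity + 12.15) scale. The median change of all 17193 probe sets tested was -0.21, and 4 of them, Adh1 included, changed by at least as much upward, which is 0.0233%. Since Adh1 was chosen for this difference, that place is a description.

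Adh1 also varied most among blastocyst arrays. Its top blastocyst value was 3.96 times its lowest and its coefficient of variation was 51.6%, where Fabp3 had 21.5% and Wfdc2 20.6% on the same arrays. Replicate 4, the lowest for Adh1, had the lowest ratio of 3′ to 5′ actin signal at 1.52 and the lowest hybridization control signal at 3532, both within the stage. Replicate 2, the highest for Adh1, had an actin ratio of 2.19 and the highest control signal of the stage at 5865. The part of these measures in the spread of Adh1 was not tested. Wfdc2 read highest of its stage on that same replicate 4, at 379.9, so the 3 genes did not share an order across the blastocyst arrays.

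Before the blastocyst, no transition of Adh1 passed the test with the authors' scaling. With arrays scaled to the hybridization controls instead, Adh1 fell from oocyte to 1-cell, with a log2 change of -1.20 (adjusted p 0.00479 in limma), where that scaling moved the median of all probe sets by -0.82. With the authors' scaling the log2 changes were -0.34 ± 0.35 from oocyte to 1-cell, -0.21 ± 0.35 from 1-cell to 2-cell and 0.44 ± 0.35 from 2-cell to 8-cell. Their adjusted p-values in limma's moderated test were 0.519, 0.680 and 0.326 (two-sided, Benjamini-Hochberg over all probe sets tested). The 95% intervals were -1.07 to 0.38, -0.93 to 0.52 and -0.29 to 1.17. Across all probe sets tested, 31.4% were called from oocyte to 1-cell (16.1% higher, 15.4% lower), 44.7% from 1-cell to 2-cell (23.2% higher, 21.5% lower) and 48.4% from 2-cell to 8-cell (23.2% higher, 25.2% lower).

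**Figure D1:**
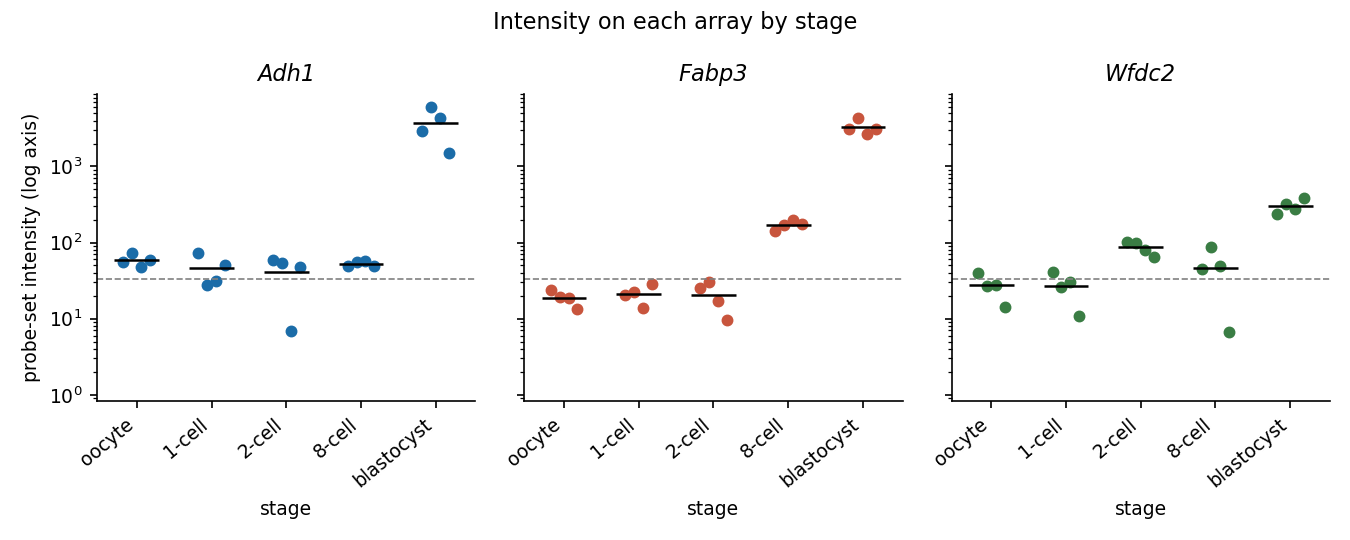
Probe-set intensity of Adh1, Fabp3 and Wfdc2 (log axis) on each of 4 arrays at 5 stages, with points for arrays, short black lines for stage means and a dashed line at the intensity filter of 33. All blastocyst points lie above all earlier points of the same gene, Fabp3 has an intermediate level of 142.8 to 197.4 at the 8-cell stage, and Wfdc2 has one of 65.3 to 102.9 at the 2-cell stage.

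The plot of intensity by stage sets the 3 courses side by side. Each gene had its highest 4 arrays in the blastocyst, which was the case for 1352 of the probe sets tested, or 7.86%. The genes differed in what came before.

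Fabp3 reached its blastocyst level in a pair of steps, the first of them at the 8-cell stage. In oocytes it read 23.6, 19, 18.5 and 13.5, in 1-cell embryos 20.6, 22.2, 13.9 and 28.2, and in 2-cell embryos 25.3, 30.2, 17.2 and 9.5. All 12 of these arrays lay below the intensity filter of 33, and the stages overlapped. At the 8-cell stage the arrays read 142.8, 168.5, 197.4 and 174.7, each above every earlier array. Blastocysts read 3073, 4301, 2664 and 3100, again with no overlap.

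From the 2-cell to the 8-cell stage Fabp3 rose by 2.52 ± 0.22 on the log2 scale (95% interval 2.08 to 2.96), from a mean of 20.6 ± 9.11 to 170.9 ± 22.5 (SD, n = 4 each). Since all 2-cell arrays lay below 33, the 8-cell level is given as at least 5.18-fold higher, against that value. The gene passed the filter through the stages where it is high, although its 4 blastocyst arrays are enough for that, and the 8-cell arrays also enter the difference that selected it. The adjusted p of 1.29e-10 in limma's moderated test is therefore a description of this step and no independent support for it. Of all probe sets, 23.2% were called higher at this transition, 1.47% rose by at least as much as Fabp3, and 13% had every 8-cell array above every earlier one.

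The blastocyst mean of Fabp3, 3284 ± 706, was 19.2 times the 8-cell mean. That difference was 4.16 ± 0.22 on the log2 scale, and 23 probe sets, or 0.134%, changed upward by at least as much. Since Fabp3 was also chosen for this difference, its place is a description. The earlier changes were small against their errors, with 0.11 ± 0.22 from oocyte to 1-cell (adjusted p 0.762 in limma's moderated test) and -0.06 ± 0.22 from 1-cell to 2-cell (0.859). The order of means was blastocyst, 8-cell, 1-cell, 2-cell and oocyte, and the last 3 did not differ beyond their spread. RefSeq lists a pseudogene, Fabp3-ps1, on chromosome 10, and whether the probes also read it was not tested.

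Wfdc2 was the gene with a peak before the blastocyst, at the 2-cell stage. In oocytes it read 39.9, 27.0, 28.0 and 14.2, and in 1-cell embryos 41.5, 25.7, 30.1 and 10.7. At the 2-cell stage it read 102.9, 97.2, 79.8 and 65.3, each above all 8 earlier arrays. At the 8-cell stage the values scattered from 6.6 on replicate 4 through 44.3 and 49.1 to 87.8 on replicate 2, which reached into the 2-cell range. Blastocysts read 234.4, 320.8, 276.4 and 379.9, all above every earlier array.

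From the 1-cell to the 2-cell stage Wfdc2 rose by a log2 change of 1.38 ± 0.35 (95% interval 0.67 to 2.09), from a mean of 27.0 ± 12.7 to 86.3 ± 17.1, or 3.20-fold (SD, n = 4 each). The 1-cell mean lay below the intensity filter, which only 1 of the 4 arrays of that stage exceeded. The size of the fold is therefore only loosely set. The adjusted p in limma's moderated test was 0.00165. It is not fully independent of the selection, which set the blastocyst against these stages as well. At this transition 23.2% of all probe sets were called higher, 11.3% rose by at least as much, and 15.2% had every 2-cell array above every oocyte and 1-cell array. The change from oocyte to 1-cell was -0.03 ± 0.35 with an adjusted p of 0.960 in the same limma test.

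From the 2-cell to the 8-cell stage Wfdc2 fell by 0.95 ± 0.35 on the log2 scale, to a mean of 47.0 ± 33.2, with an adjusted p of 0.0251 in limma's moderated test, although the arrays overlapped and 25.2% of all probe sets fell. As for Fabp3, the 8-cell arrays also enter the selecting difference, so the p is no independent support. The call rested on single arrays. Without 8-cell replicate 4 the change was -0.47 and the adjusted p in limma 0.178, and it was also lost without 2-cell replicate 1 (0.0678), without 2-cell replicate 2 (0.0592) and in a fit of the compared stages alone (0.0610). Without 8-cell replicate 2 the change was larger, -1.28, with an adjusted p of 0.00291 in limma.

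The blastocyst mean of Wfdc2, 302.9 ± 62.3, was 6.45 times the 8-cell mean and 3.51 times the 2-cell mean. On the log2 scale the difference from the 8-cell stage was 2.62 ± 0.35, and 195 probe sets, or 1.13%, changed upward by at least as much. That place is a description too, since Wfdc2 was chosen for this difference. The order of means was blastocyst, 2-cell, 8-cell, oocyte and 1-cell, and only the step from blastocyst to 2-cell was free of overlap.

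**Figure D2:**
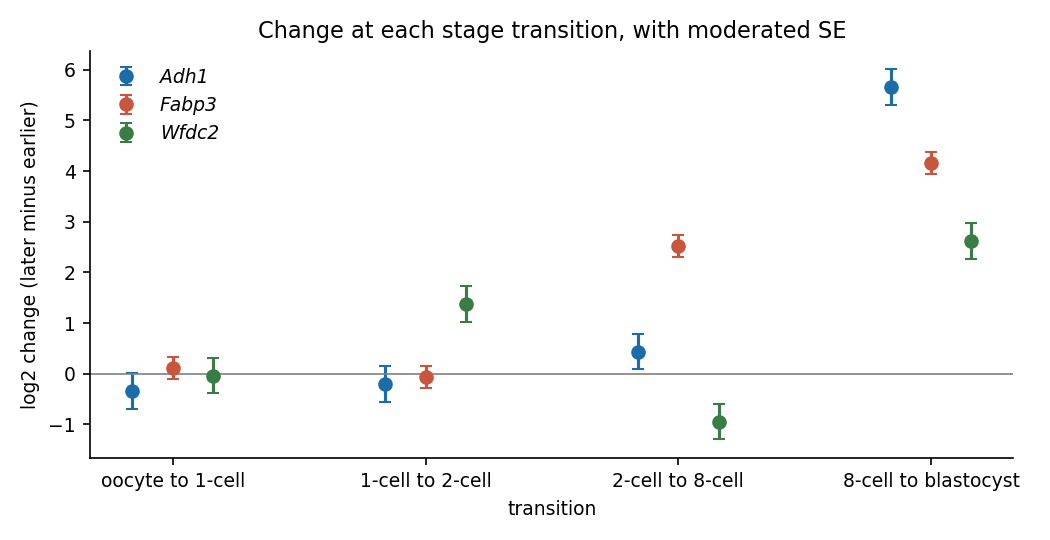
Log2 change of Adh1, Fabp3 and Wfdc2 at 4 consecutive transitions (later minus earlier stage, 4 arrays each), with bars of 1 moderated standard error. The 3 genes separate before the last transition, where Fabp3 alone lies at 2.52 from 2-cell to 8-cell and Wfdc2 alone at 1.38 from 1-cell to 2-cell, and all 3 lie above 2 from 8-cell to blastocyst.

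The plot of changes by transition shows the 3 genes apart at the 2-cell and 8-cell stages and all upward at the blastocyst. The difference between the genes at a transition was not tested.

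Because Wfdc2 is made by epithelia of the reproductive tract, markers of oviduct and uterine epithelium were read on the same arrays. Of 10 listed, 9 were on the array, and their summed intensity ran from 278.4 to 423.1 in oocytes and from 361.8 to 595.5 in 1-cell embryos. At the 2-cell stage the sums were 1490.0, 1243, 840.1 and 686.2 for replicates 1 to 4, the same order as Wfdc2 on those arrays. Of the 7 markers tested, 1 rose from 1-cell to 2-cell, 0 fell and 6 did not pass, where 23.2% of all probe sets were called higher. Mean intensity was lower at the 2-cell stage for Pax8 (70.7 against 95.5), Foxj1 (15.1 against 18.65) and Dnah5 (12.95 against 18.3). It was higher for the other markers on the array. At the 8-cell stage they were 701.4, 4435, 532.3 and 325.5, so that replicate 2 stood highest and replicate 4 lowest in both the sum and Wfdc2. In blastocysts the sums ran from 235.5 to 363.4, no higher than in oocytes, while Wfdc2 was at its highest.

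On the 2-cell arrays and 8-cell replicate 2, most of the sum came from Ovgp1, the oviduct glycoprotein, and Ltf, the secreted iron-binding protein lactoferrin. Ovgp1 read 764.6, 614.4, 381.1 and 219.6 in 2-cell embryos, 193.5, 3105, 113.4 and 46.5 in 8-cell embryos and 24.4 to 56.5 in blastocysts. Between 1-cell and 2-cell embryos it rose by a log2 change of 2.46 ± 0.67 (adjusted p 0.00362 in limma) and fell by 2.35 ± 0.67 from the 8-cell stage to the blastocyst (adjusted p 0.00631 in limma). Without 8-cell replicate 2 that fall was 1.16 (adjusted p 0.0249 in limma). Ltf read 372.5, 305.5, 230.2 and 154.8 in 2-cell embryos, 45.8, 926.1, 48.4 and 13.4 in 8-cell embryos and 6.6 to 53.4 in blastocysts. Its log2 change from 1-cell to 2-cell was 1.12 ± 0.61 and did not pass (adjusted p 0.147 in limma). The part of oviduct RNA in the 2-cell, 8-cell and blastocyst values of Wfdc2 was not tested. In blastocysts Ovgp1 averaged 40.5 and Ltf 28.6. Of the 9 markers Msx1 was the highest there at 99.1, where it averaged 36.35 in oocytes and 84.3 at the 8-cell stage.

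**Figure D3:**
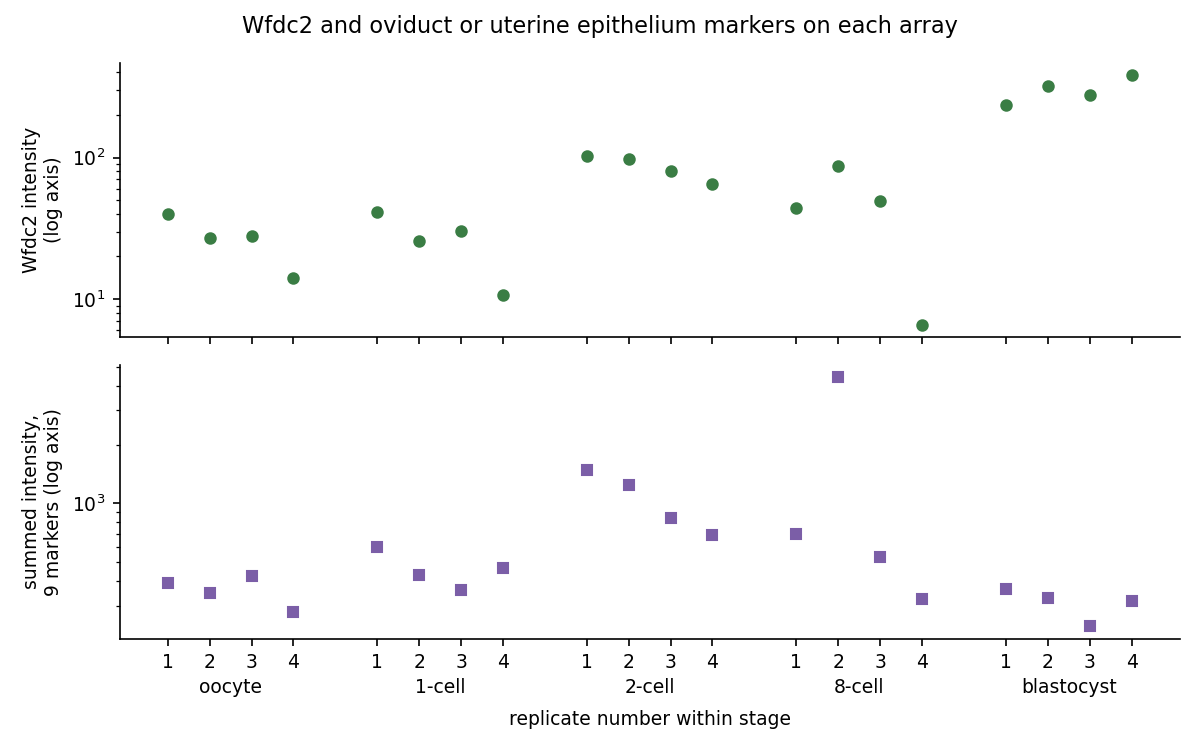
Wfdc2 intensity (upper panel) and the summed intensity of 9 oviduct and uterine epithelium markers (lower panel), both on log axes, with 1 point per array for 4 replicates at each of 5 stages. Both are raised on the 2-cell arrays and on 8-cell replicate 2, and in blastocysts Wfdc2 is at 234.4 to 379.9 while the marker sum is at 235.5 to 363.4, below the 423.1 it reached in oocytes.

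The array-by-array plot shows Wfdc2 and the marker sum both raised at the 2-cell stage, and Wfdc2 without the sum raised in the blastocyst. Sums over markers of other cells overlapped between blastocysts and the 8-cell stage, although the highest 8-cell array lay above all blastocyst arrays in each list. In blastocysts the sum over 8 cumulus and granulosa markers was 137.4 to 225.5, over 8 sperm markers 86.4 to 197.6 and over 7 blood cell markers 197.2 to 250, where the sums at the 8-cell stage were 223.8 to 417.7, 151.8 to 299.7 and 226.2 to 463.3. Those still above the filter in blastocysts were Pax8, Upk1a, Inha, Fshr, Prm2, Acr, Hba-a1, Cd14, Lyz2 and Cd79b beside Ovgp1 and Msx1, with means of 33.2 to 99.1.

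The other genes of each pathway were then counted from the 8-cell stage to the blastocyst, where 45% of all probe sets were called, 19.5% higher and 25.5% lower. Genes were tested by the probe set with the highest mean, and adjusted p-values are from limma over all probe sets. Where a mean at either stage lay below the filter of 33, the size of the change is only loosely set. Among others this holds for Rdh14, Acsl5 and Tfpi, which lay below it at the 8-cell stage. Of 39 listed genes of retinoid metabolism and signalling, 33 were on the array and 25 tested, of which 5 rose, 7 fell and 13 did not pass. The 5 make up 20% of those tested, near the 19.5% of all probe sets, and the median change was -0.17 beside -0.21 for all. Adh5, the class III alcohol dehydrogenase that also handles formaldehyde adducts, rose by 1.53 ± 0.19 from 455.6 ± 150 to 1296 ± 102 (adjusted p 2.68e-07 in limma). Rdh14, a retinol dehydrogenase, rose by 1.83 ± 0.26, from 18.3 ± 16.1 to 88.2 ± 20.1, and 1 of its 2 tested probe sets carried this call. Dhrs4, a retinal reductase, rose by 0.81 ± 0.25.

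Rdh10, the retinol dehydrogenase that supplies retinal for retinoic acid in the later embryo, fell by 2.14 ± 0.18, from 688.9 ± 92.3 to 152.2 ± 50.1 (adjusted p 3.67e-10 in limma). Crabp1, a carrier of retinoic acid, fell by 1.02 ± 0.36, from 36.6 ± 11.5 to 12.3 ± 7.44, a call lost with quantile normalization (adjusted p 0.0548 in limma) and with centring (0.0636). Rara, a retinoic acid receptor, fell by 1.02 ± 0.26, from 54.9 ± 3.75 to 21.1 ± 3.18. These directions are relative to the authors' scaling. With arrays scaled to the hybridization controls, which moved the median of all probe sets by 0.91, 1 of the 25 fell and 10 rose. Of all 17193 probe sets, that scaling called 7854 higher and 328 lower. Under that scaling Rdh10 still fell, by 1.03 (adjusted p 0.00376 in limma).

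Of 35 listed genes of fatty acid binding, uptake and storage, 30 were on the array and 23 tested, of which 8 rose, 7 fell and 8 did not pass, with a median of -0.10. The rises make up 34.8% of those tested, where 19.5% of all probe sets were called higher and 25.5% lower. Acsl5 and Acsl6, which activate long-chain fatty acids to their CoA esters, rose by 3.31 ± 0.36, from 7.78 ± 5.40 to 189.4 ± 68.6, and by 2.93 ± 0.21, from 35.2 ± 10.1 to 344.9 ± 52.4 (adjusted p 3.69e-08 and 1.05e-11 in limma). Dbi, the acyl-CoA binding protein, rose by 2.91 ± 0.34, from 79.9 ± 53.1 to 613.5 ± 101. Fabp5, the epidermal relative of Fabp3 and a gene singled out after its values were seen, rose by 2.19 ± 0.21, from 715.4 ± 136 to 3270.0 ± 291. Fabp4, another relative, fell by 0.81 (adjusted p 0.0369 in limma). That call was lost with quantile normalization (adjusted p 0.0922 in limma) and with centring (0.110).

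Acsl4, an acyl-CoA synthetase with a preference for arachidonic acid, fell by 3.94 ± 0.28, from 380.1 ± 104 to 13.9 ± 8.59 (adjusted p 1.47e-11 in limma). Of the 3 long-chain acyl-CoA synthetases tested, 2 thus rose while Acsl4 fell. Dgat2, which makes triglyceride, fell by 1.26 ± 0.20, and Slc27a5, a bile acid and fatty acid CoA ligase, fell by 1.22 ± 0.28. Of the 7 falls, 1 was left with scaling to the hybridization controls, and Acsl4 still fell there by 3.02. Dgat1 stands on both the fatty acid and the retinoid list and rose by 0.76 ± 0.20.

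Of 35 listed WAP-domain proteins and extracellular protease inhibitors, 27 were on the array and 19 tested, of which 4 rose, 6 fell and 9 did not pass, with a median of -0.40. The 4 make up 21.1% of those tested, near the 19.5% of all probe sets called higher. Of all probe sets, 25.5% were called lower. Tfpi, an inhibitor of the tissue factor pathway of clotting, rose by 3.14 ± 0.28, from 22.2 ± 14.5 to 284.7 ± 97.7 (adjusted p 7.0e-10 in limma, with the call on 2 of 3 probe sets). Cst3, which inhibits cysteine proteases, rose by 1.17 ± 0.20, and Spint1, a membrane inhibitor of epithelial serine proteases, by 0.85 ± 0.17. Of the 8 tested genes with a WAP domain like Wfdc2, a subset formed after values were seen, 0 rose, 3 fell (Wfdc18, Slpi and Wfdc15b) and 5 did not pass. These counts can be read against the same shares of all probe sets. Wfdc18 fell by 1.47 ± 0.49 (adjusted p 0.0169 in limma), but its 8-cell mean of 370.8 ± 534 rested on replicate 2, which read 1169 where the others read 52.5 to 140.6. Without that array the change was -0.62 and did not pass (adjusted p 0.104 in limma). Wfdc15b, at -0.72, did not pass with quantile normalization (adjusted p 0.120 in limma). Slpi, the secretory leukocyte protease inhibitor, fell by 1.26 ± 0.28, from 88.2 ± 16.1 to 33.8 ± 24.7, and Serpinf1 fell by 1.00 ± 0.25. With scaling to the hybridization controls 0 of the 19 fell and 5 rose, beside 328 lower and 7854 higher of all 17193 probe sets.

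The 3 genes were also set beside markers of the blastocyst's cell types. Of 19 trophectoderm markers on the array, 18 were tested, 13 rose and 3 fell, with a median of 1.60. Over all probe sets 19.5% were called higher and 25.5% lower. Cdx2, a factor that specifies trophectoderm, rose by 1.95 ± 0.33, from 131.4 ± 84.1 to 449.0 ± 58.7. The keratins Krt8 and Krt18, filaments of the trophectoderm epithelium, rose by 3.64 ± 0.26 and 3.79 ± 0.23, and Elf5, a factor of trophoblast stem cells, by 3.93 ± 0.28. Tead4, which acts upstream of Cdx2, fell by 1.87 ± 0.24, from 371.5 ± 47.4 to 96.2 ± 35.5, and Hand1, a factor of trophoblast giant cells, fell by 1.18 ± 0.30 on 1 of its 2 probe sets. With scaling to the hybridization controls 14 rose and 0 fell, beside 7854 higher and 328 lower of all 17193 probe sets.

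Among 14 inner cell mass and pluripotency markers, 6 rose and 6 fell, with a median of -0.04. The shares over all probe sets were again 19.5% higher and 25.5% lower. Sox2 rose by 1.99 ± 0.23, Tfcp2l1 by 1.98 ± 0.29 and Nanog by 0.73 ± 0.28, the last a call lost with quantile normalization (adjusted p 0.0786 in limma). In the other direction Tbx3 fell by 2.11 ± 0.23 and Dppa4 by 1.32 ± 0.18. Among 17 primitive endoderm markers, 9 rose and 3 fell, with a median of 0.65. Lrp2, an endocytic receptor, rose by 3.45 ± 0.35, and Sox17, a factor of endoderm, by 2.80 ± 0.30 on 1 of its 2 probe sets. Gata6, which specifies primitive endoderm, fell by 0.74 ± 0.18, from 1055 ± 118 to 629.8 ± 90.4, Hnf4a fell by 0.94 ± 0.23 on 1 of 3 probe sets and Gata4 by 0.74 ± 0.21. With scaling to the hybridization controls 1 inner cell mass marker and 0 primitive endoderm markers fell, and Tbx3 was still lower, by a log2 change of -0.98 (adjusted p 0.00812 in limma). Which of the 3 cell types held Adh1, Fabp3 or Wfdc2 transcripts was not measured, since each array holds whole embryos.

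**Figure D4:**
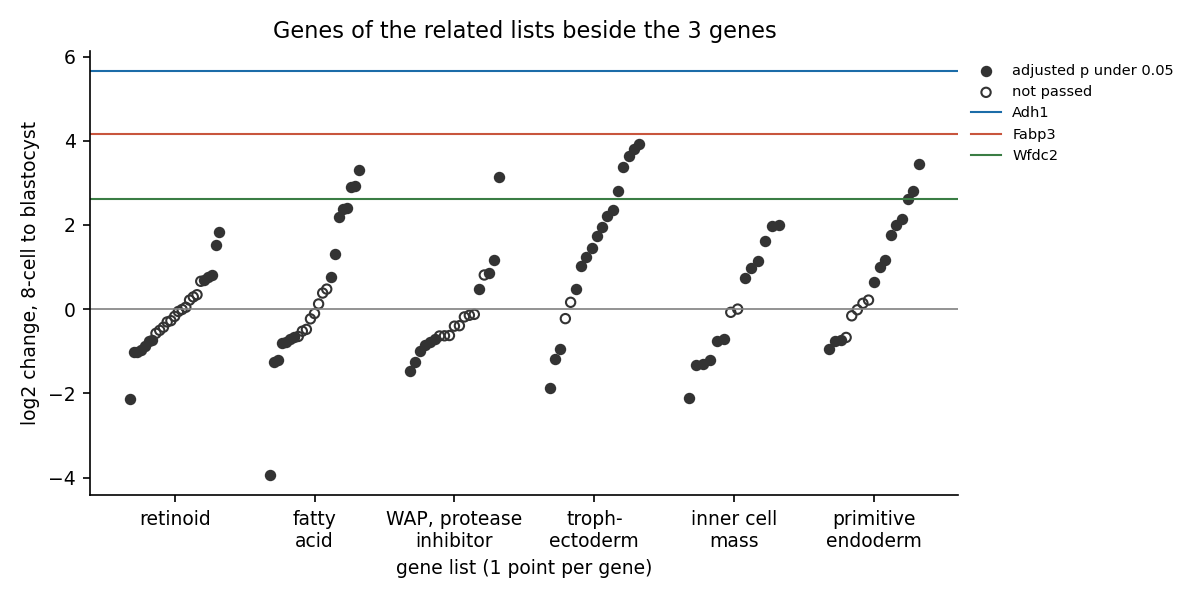
Log2 change from the 8-cell stage to the blastocyst for each tested gene of 6 lists, with filled points where the adjusted p in limma was under 0.05, open points otherwise, and horizontal lines at the changes of Adh1 (5.66), Fabp3 (4.16) and Wfdc2 (2.62). The retinoid, fatty acid and protease inhibitor lists spread to both sides of 0, and most trophectoderm markers lie above 0. No gene of the 6 lists reaches the lines of Adh1 and Fabp3 on this scale, which understates changes of dim probe sets.

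The plot of list changes places the 3 genes against these lists. On this log2 scale the highest point of the trophectoderm list, Elf5 at 3.93, lay below the line of Fabp3. The constant added to each intensity understates changes of dim probe sets, and Elf5 averaged only 6.45 at the 8-cell stage. In blastocysts Elf5 averaged 284.5. Fabp3 went from 170.9 to 3284, so the plain ratio of means was larger for Elf5. Because the 8-cell mean of Elf5 lay below the filter of 33, that ratio is only loosely set. The order of Elf5 and Fabp3 is therefore not settled. The 3 genes were selected for this difference, so their place against the lists is a description.

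Genes with the most similar course were taken by Pearson correlation of log2 values over the 20 arrays, among 10248 genes, as a description. The points share stages and arrays, so high values are common among genes that rise at one stage. Most like Adh1 were Akr1c13, an aldo-keto reductase that acts on steroids (r = 0.983), Prxl2a, a peroxiredoxin-like protein (0.979), Hebp1, a heme-binding protein (0.976), Gng2, a G protein subunit (0.971), and Blvrb, biliverdin reductase B (0.969). Like Adh1 they were low up to and including the 8-cell stage. Akr1c13, Hebp1, Gng2 and Blvrb had means below the filter of 33 at every stage before the blastocyst. Akr1c13 read only 33.9 to 69.7 in blastocysts. Prxl2a averaged 31.9 at the 8-cell stage and 1151 in blastocysts, and Hebp1 averaged 6.33 and 152.8.

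Most like Fabp3 were Marcks, a membrane-bound substrate of protein kinase C (r = 0.988), Tmem62 (0.988), Krt8 (0.985), Capg, an actin-capping protein (0.981), and Asns, asparagine synthetase (0.981). These genes shared its intermediate 8-cell level. Marcks averaged 17.8 in 2-cell embryos, 88.3 in 8-cell embryos and 533.7 in blastocysts, and Krt8 averaged 104.1, 347.6 and 4372.

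Most like Wfdc2 were Tmsb4x, thymosin beta 4, which binds actin monomers (r = 0.935), Lifr, the receptor of leukaemia inhibitory factor (0.932), Lima1, an actin-binding protein (0.931), Sox17 (0.921) and Id2, an inhibitor of DNA binding by helix-loop-helix factors (0.914). Their 2-cell means exceeded those of both neighbouring stages, as that of Wfdc2 did. Tmsb4x averaged 42.1 in 1-cell, 209.1 in 2-cell and 135.7 in 8-cell embryos and 2783 in blastocysts, and Sox17 averaged 26.5, 88.9, 40.9 and 353.6. The Sox17 probe set is of a type whose probes can match other transcripts.

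Among themselves the 3 genes were less alike. Adh1 and Fabp3 correlated at 0.915 over the 20 arrays, Adh1 and Wfdc2 at 0.787 and Fabp3 and Wfdc2 at 0.765. Of 10250 genes, Fabp3 ranked 68 in likeness to Adh1 and Wfdc2 ranked 789 in likeness to Fabp3.

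**Figure D5:**
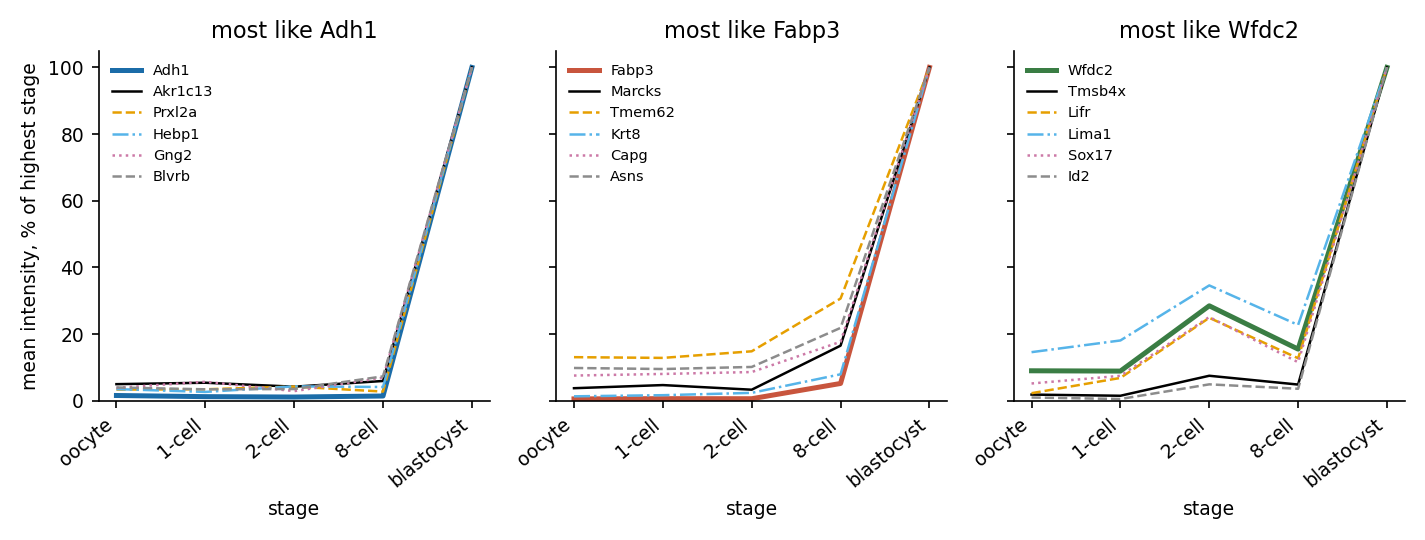
Stage means of Adh1, Fabp3 and Wfdc2 (thick lines) and of the 5 genes most like each (thin lines), as a percentage of the gene's own highest stage mean, over 5 stages with 4 arrays each. The genes like Adh1 stay near the floor until the blastocyst, those like Fabp3 turn up at the 8-cell stage, and those like Wfdc2 have a small peak at the 2-cell stage.

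The plot of similar courses shows these 3 shapes, each reached by genes that were picked for that shape.

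The chromosomal neighbours were read last, as the 10 protein-coding genes on each side in RefSeq order on GRCm38.p6, a set chosen after values had been seen. Adh1 lies in a cluster of alcohol dehydrogenase genes, and of its 20 neighbours 13 were tested, 3 rose and 3 fell from the 8-cell stage to the blastocyst, with a median of 0.22. Next to it, Adh7, a class IV enzyme active on retinol, changed by -0.57 ± 0.28 (adjusted p 0.0911 in limma). On the other side the nearest genes, Adh6a and Adh6b, had no probe set of 1 gene symbol. Adh4, which lies 3 genes away, changed by 0.34 ± 0.28 (adjusted p 0.330 in limma), while Adh5 rose. With scaling to the hybridization controls Adh4 rose too, by 0.89 (adjusted p 0.0344 in limma), and of the 13 genes 8 rose and 0 fell. Around Fabp3, 14 neighbours were tested, 4 rose and 3 fell, with Tinagl1, a basement membrane protein, at 3.22 ± 0.34 and Nkain1 at 2.11 ± 0.22, and under that scaling 8 rose and 0 fell. Around Wfdc2, 8 were tested, of which Sdc4, the heparan sulfate proteoglycan syndecan 4, rose by 3.34 ± 0.22 and Slpi fell, and under that scaling 4 rose and 0 fell, with Slpi at -0.33 (adjusted p 0.467 in limma). The shares that rose with the authors' scaling can be read against the 19.5% of all probe sets, and those that fell against 25.5%. With scaling to the hybridization controls 7854 of 17193 probe sets were called higher and 328 lower, so the neighbour counts there can be read against these.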

How the data were processed

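The authors deposited linear probe-set intensity values for 20 arrays, per the labels from RNA amplified by repeated in vitro transcription. Each array had a trimmed mean of 150.1 with 2% trimmed at each end, so the values are scaled to a common level, and no source used here gives the software or background step. Groups came from the stage in each title. Of 22690 probe sets, 64 controls were left out, and 20380 of the others carried 1 gene symbol, 691 several and 1555 none in the platform annotation.

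Intensities were transformed as log2(value + 12.15), which understates the change of dim probe sets. The test took the 17193 probe sets, for 10251 genes, that exceeded 33 (the 40th percentile of all values) on 4 or more arrays. All 3 genes passed, with 17 arrays above the filter for Adh1, 8 for Fabp3 and 13 for Wfdc2. Fabp3 passed only through the stages where it is high. One model with a mean for each of the 5 stages was used (limma 3.58.1, R 4.3.3; lmFit and eBayes, trend on, 15 residual df), with Benjamini-Hochberg adjustment within each comparison and a threshold of 0.05. No batch is named. The number of arrays limits the precision. Of 190 pairs of arrays, 0 held identical values. The fit was tested on simulated data.

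The 3 genes and all lists were chosen with earlier results of these data known. Named are the 3 genes, the 5 genes most like each, up to 3 called rises and 3 falls with the largest change per pathway list and 2 per cell type list, Cdx2, Krt8, Nanog, Gata6, the stage checks Zp3, Gdf9 and Zfp352, and markers of other cells above the filter in blastocysts. Genes outside this rule are Fabp4, Fabp5, Dgat1, Wfdc15b, Ltf and the neighbours, named after their values were seen. Alternatives were quantile normalization, centring, scaling to 9 hybridization control probe sets, other pseudocounts (3.04 and 48.6) and filters, a 2-fold threshold, a replicate block, the compared stages alone and leaving out each replicate. Scalings of the neighbour, stage marker and Ovgp1 results, and single genes without an 8-cell array, were added after seeing the data.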

Additional observations from a re-analysis of the deposited data

Results flagged for a closer look

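In groups of 4 arrays a value was marked where its gap to the nearest other array was large against the range of the group, which chance does in about 1 in 20 groups. Of 162 groups examined, 10 were marked (6.17%), and none belonged to Adh1, Fabp3 or Wfdc2. No cause was tested.

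On 8-cell replicate 2, Ovgp1 read 3105.4 where the other 3 arrays read 46.5 to 193.5, Ltf read 926.1 against 13.4 to 48.4, Wfdc18 read 1169.4 against 52.5 to 140.6, and the sum of the oviduct and uterine markers was 4435 against 325.5 to 701.4. The same array read highest of its stage for Wfdc2. Rdh14 on that array read 42.1 against 7.1 to 12.8. On 8-cell replicate 3, Tfpi read 43.6 against 11.4 to 16.9 and Id2 read 129.1 against 11.1 to 22.1. On blastocyst replicate 2, which was highest for Adh1 and Fabp3, Gng2 read 218.2 against 125.4 to 140.9 and Tmsb4x read 4743.1 against 2086.2 to 2200.9. Lima1 on blastocyst replicate 3 read 186.7 against 281.7 to 297.0.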

How the results depend on the processing

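The rise of Fabp3 from 2-cell to 8-cell (1.67 to 2.97 over the other settings) and that of Wfdc2 from 1-cell to 2-cell (0.84 to 1.67) kept their direction and call in all settings run and without each replicate. For Wfdc2 the p is not fully independent of the selection. For Fabp3 this is a description and no independent support. The gene passed the filter only through the stages where it is high, and its 8-cell arrays enter the selecting difference. With scaling to the hybridization controls, which moved the median of all probe sets by -0.82, 0.17, -0.47 and 0.91 at the 4 transitions, Adh1 changed by -1.20 from oocyte to 1-cell (adjusted p 0.00479 in limma), 0.044 from 1-cell to 2-cell and -0.097 from 2-cell to 8-cell, and Fabp3 by -0.55 from oocyte to 1-cell and 0.077 from 1-cell to 2-cell. From 8-cell to blastocyst the changes there were 6.64 for Adh1, 5.24 for Fabp3 and 3.54 for Wfdc2, and with a pseudocount of 48.6 they were 5.03 for Adh1 and 3.91 for Fabp3. The 5 most similar genes shared 3 members for Adh1 and 2 for Fabp3 under that scaling. With the compared stages alone Wfdc2 still changed by -0.95 from 2-cell to 8-cell but did not pass (adjusted p 0.0610 in limma).

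Leaving out each replicate gave, for Adh1, -0.39 to 0.24 from 1-cell to 2-cell and -0.0047 to 0.62 from 2-cell to 8-cell; for Fabp3, -0.20 to 0.13 from 1-cell to 2-cell; and for Wfdc2, -0.21 to 0.20 from oocyte to 1-cell and -1.28 to -0.47 from 2-cell to 8-cell. Falling fatty acid genes ran from 3 (without blastocyst replicate 1) to 8, falling retinoid genes from 4 (without 8-cell replicate 3 or blastocyst replicate 3) to 7, and rising retinoid genes from 3 (without 8-cell replicate 4) to 6.

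From 8-cell to blastocyst, the 7 falling fatty acid genes became 3 with a 2-fold threshold, 3 with centring, 4 with the stricter filter, 4 with quantile normalization and 1 with scaling to the controls, and the 7 falling retinoid genes 3, 4, 4, 4 and 1. Rising retinoid genes were 2 at 2-fold and 10 with scaling to the controls. At 2-fold, primitive endoderm falls were 0, protease inhibitor falls 2 and rises 2. With scaling to the controls, falls were 1 for the inner cell mass and 0 each for the trophectoderm, primitive endoderm and protease inhibitors. Without 8-cell replicate 2, trophectoderm markers gave 13 rises and 3 falls, retinoid genes 5 and 6, fatty acid genes 8 and 6, and protease inhibitors 3 and 5.

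Alternatives chosen after seeing the data left the oocyte marker falls at 9 under each scaling and the 2-cell activation rises at 4 or 5. Rising neighbours of Wfdc2 were 2 with centring.

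Over all probe sets, those called higher from 8-cell to blastocyst were 3358, against 1882 at 2-fold and 7854 with scaling to the controls, and those lower 4381, against 1557, 328 and, with centring, 2454. From 2-cell to 8-cell 3994 were higher, against 2221 at 2-fold and 1381 with that scaling, and 4332 lower, against 2843 at 2-fold. From 1-cell to 2-cell 3700 were lower, against 1998 and 1864. From oocyte to 1-cell 2760 were higher, against 818 and 49, and 2640 lower, against 1602 and 7373. Higher calls made up 43.4% of calls from 8-cell to blastocyst, 63.0% with centring and 96.0% with scaling to the controls; that scaling gave 0.660%, 66.3% and 20.2% at the 3 earlier transitions, against 51.1%, 51.9% and 48.0%.

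A replicate block changed no call of the 3 genes. With it the adjusted p in limma was 4.66e-10 for Fabp3 from 2-cell to 8-cell and 0.00053 for Wfdc2 from 1-cell to 2-cell. The Fabp3 value is again a description only, and the Wfdc2 value is not fully independent of the selection. The numbers were not taken as pairs, since 6 of 40 same-number pairs had a correlation of deviations over 0.1 (range -0.16 to 0.18) and 7 of 20 arrays correlated best with their own number. Other probe sets of a gene could not be tried, since each gene has 1. Fabp3 lies below the filter at 3 stages, where its values bound the level only loosely.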
